A study of Rattus norvegicus with 10 samples.

Results

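Chromosome 10 of the rat was examined in the methyl-capture data of the amygdala stimulation model. All regions of the deposited table that lie on chromosome 10 in the RN4 assembly were taken, which gave 32032 of 574544 regions. The chromosome was chosen on its share of regions with higher counts in SE rats than in control rats, so the SE against control values along it are a description of that choice and carry no test of the chromosome against the rest of the genome. Of the 32032 regions, 16803 held enough tags to be tested, among 291987 tested regions of the whole table.

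The study asked whether DNA methylation in the hippocampus changes after an epileptogenic injury. Male Sprague-Dawley rats carried a bipolar electrode in the left lateral nucleus of the amygdala. In the SE group, trains of current pulses through that electrode evoked status epilepticus (SE), a seizure that does not end by itself, and diazepam stopped it. The control group was sham operated, with the same electrodes and no stimulation. Tissue with the CA3 field and dentate gyrus of the left hippocampus was collected 3 months after SE, and 1 library was made from each rat. Control rats 1, 3, 4 and 5 and SE rats 6, 8, 9 and 10 were compared. Control rat 2 and SE rat 7 are labelled as discarded and were kept as a separate check. The tissue holds neurons and glia together, and a different mixture of cells and a different methylation within cells cannot be told apart. The table names no genes, so the tissue label was not set against marker genes.

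DNA methylation is the addition of a methyl group to cytosine, in mammals mostly where a guanine follows (CpG sites). DNA methyltransferases place and maintain the mark, and TET enzymes start its removal. Methylation of CpG-rich promoters usually accompanies a silent gene, whereas the bodies of transcribed genes are often methylated. Methyl capture pulls down fragments with a protein domain that binds methylated CpG, so the number of tags in a region depends on how many CpG sites are methylated and on how many lie close together. A region is called hypermethylated here when its tag count was higher in SE rats and hypomethylated when it was lower, provided that the quasi-likelihood test of edgeR gave it an unadjusted p under 0.01.

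Total tags per library ranged from 5499370 to 7179519 in the 8 rats compared, and a tested region of chromosome 10 held a median of 12.1 tags per library. SE rat 7 stood apart from the others. It had 14655629 tags, and 2499 of the 32032 regions of chromosome 10 held no tag in it, against 67 to 459 regions in the other 9 libraries.

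Chromosome 10 held a larger share of the tags in each SE rat than in any control rat. The share was 5.53% in control rat 1, 5.35% in rat 3, 5.19% in rat 4 and 5.27% in rat 5. In SE rats 6, 8, 9 and 10 it was 5.57%, 5.54%, 5.65% and 5.67%. The groups did not overlap, although control rat 1 lay just below SE rats 8 and 6. The means were 5.33% ± 0.144 and 5.61% ± 0.0602 (SD, n = 4 each), a difference of 0.277 percentage points. Both discarded libraries had larger shares than all of these, 5.83% in control rat 2 and 5.72% in SE rat 7. Control rat 2 thus lay on the side of the SE rats.

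Region by region, 150 regions of chromosome 10 were hypermethylated, or 0.893% of those tested, against 0.584% of all tested regions. Hypomethylated regions numbered 64, or 0.381%, against 1.07% of all tested regions. The other autosomes together had 0.564% hypermethylated and 1.08% hypomethylated regions. By hypermethylated share chromosome 10 came after chromosomes 19 (1.00%) and 12 (0.893%, with 88 of 9850 regions) and before the other 17 autosomes. Only chromosome 12 had a smaller hypomethylated share (0.213%). The whole distribution of fold changes on chromosome 10 was displaced, with a median log2 fold change of 0.07, quartiles of -0.17 and 0.30, and 57.1% of regions above 0. On the other autosomes the median was -0.00 and 49.9% of regions were above 0. The displacement was not particular to chromosome 10. The median was larger on chromosome 12 (0.10), and chromosomes 20 and 19 came after chromosome 10 (0.05 each).

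Every SE rat lay above every control rat in 378 regions of chromosome 10 (2.25%), against 1.69% of all tested regions, and below every control rat in 186 (1.11%), against 1.94%. The share of regions with every SE rat above was 2.67% on chromosome 12, 2.23% on chromosome 20 and 2.18% on chromosome 19. No region of chromosome 10 passed an adjusted p of 0.05 (Benjamini-Hochberg over all regions, edgeR), whereas 18 regions, 0.00616%, did so in the whole table. The smallest adjusted p on chromosome 10 was 0.104. An unadjusted p below 0.05 (edgeR, either direction) was found in 974 of its 16803 tested regions. In the whole table it was found in 20157 of 291987, which is a larger share. The calls on this chromosome thus rest on the unadjusted threshold.

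The fold changes of both classes covered nearly the same sizes. Both classes were chosen by the same threshold on p, which limits how small a called fold change can be at a given tag count. The likeness in size therefore follows in part from the choice. The absolute log2 fold change had a median of 1.01 in hypermethylated regions, with a range of 0.58 to 1.62. In hypomethylated regions the median was 1.09, with a range of 0.34 to 1.64. The classes differed in their surroundings. Hypermethylated regions had a median of 37.5 regions of the table less than 50 kb away, a number called local density here, close to the median of 36 in uncalled regions. Hypomethylated regions had a median local density of 18. Hypermethylated regions were also longer, with a median of 658 bp against 577 bp for hypomethylated and 604 bp for uncalled regions. They held more tags, a median of 13.7 per library against 11.3 and 12.1.

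The highest and the lowest rat differed among the hypermethylated regions. These regions were chosen on the same 8 rats, so SE rats at the top and control rats at the bottom largely follow from the choice. The calls did depend on single rats, as 72 of the 150 were called again without control rat 5 and 97 without SE rat 6. SE rat 10 was the highest of the 8 rats in 45 of the 150 regions, SE rat 9 in 43, SE rat 8 in 42 and SE rat 6 in 20. Control rats 5, 3 and 4 were the lowest in 43, 42 and 41 regions and control rat 1 in 21. SE rat 6 and control rat 1 were therefore the least extreme members of their groups. The groups did not overlap in 83 of the 150 hypermethylated and in 32 of the 64 hypomethylated regions. Among tested regions that were not called, the groups did not overlap in 449 of 16589 (2.71%). The choice of called regions on the same 8 rats favours separate groups, so the counts for called regions do not measure consistency between rats.

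The map in 5 Mb windows shows how far the displacement extended along the chromosome. Tags of all regions in a window were summed, tested or not, and the 23 windows of chromosome 10 were fitted together with all 555 windows of the table. The log2 fold change was above 0 in 21 of the 23 windows, and its median was 0.10 against -0.01 over all windows. At an adjusted p below 0.05, 20 windows were higher in SE rats, against 31.5% of all windows, and 1 was lower, against 30.5%. The groups did not overlap in 13 windows that were higher, against 21.4% of all windows. The differences were small in size, from -0.06 to 0.19 on the log2 scale, and each window summed between 224 and 2138 regions.

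**Figure D1:**
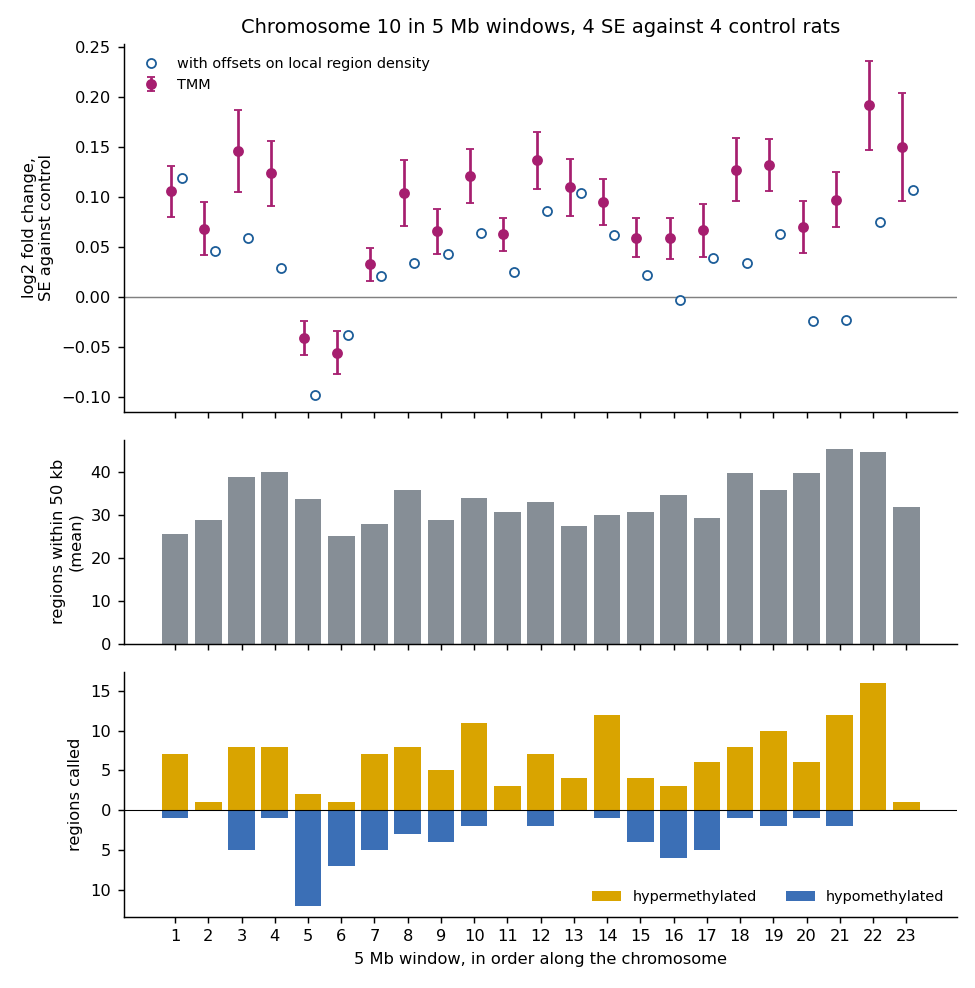
Chromosome 10 in 23 consecutive 5 Mb windows. The top panel gives the log2 fold change of summed tags, 4 SE against 4 control rats, with its standard error (filled, TMM) and with offsets on local region density (open), the middle panel the mean number of regions within 50 kb, and the bottom panel the hypermethylated (upward) and hypomethylated (downward) regions. Windows 5 and 6 are the only windows below 0 with TMM, and window 22 is the highest at 0.19.

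Window 22, the last complete one, had the largest difference. Its normalised tag sum in CPM (tags scaled to a common library total) was 4397, 3990.0, 3794 and 3918 in control rats 1, 3, 4 and 5, and 4585, 4425, 4613 and 4759.5 in SE rats 6, 8, 9 and 10. The groups were separate, with control rat 1 closest to the SE rats. The log2 fold change was 0.19 ± 0.04 (SE), with an adjusted p of 0.0104, and the window held 16 hypermethylated and 0 hypomethylated regions. The incomplete window 23 at the end of the chromosome (0.15 ± 0.05, adjusted p 0.0328) and window 3 from 10 to 15 Mb (0.15 ± 0.04, adjusted p 0.0141) came next. Windows 21 and 22 together held 28 hypermethylated regions, which is 18.7% of those on the chromosome on 14.0% of its tested regions. Of the 12 in window 21, 3 lie in a stretch where control rat 5 had almost no tags, described below.

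One stretch went the other way. In window 6, from 25 to 30 Mb, control rats 1, 3, 4 and 5 had 1458, 1507, 1529 and 1532 CPM, and SE rats 6, 8, 9 and 10 had 1446, 1473, 1462 and 1417. The groups overlapped, and the log2 fold change was -0.06 ± 0.02 with an adjusted p of 0.0433. The neighbouring window 5, from 20 to 25 Mb, had a log2 fold change of -0.04 ± 0.02 and missed the threshold (adjusted p 0.0542). These windows held 12 and 7 hypomethylated against 2 and 1 hypermethylated regions. Window 7 was the lowest of those above 0, at 0.03 ± 0.02 (adjusted p 0.105). Hypermethylated regions outnumbered hypomethylated ones in 19 windows, the reverse held in windows 5, 6 and 16, and the numbers were equal in 1 window.

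**Figure D2:**
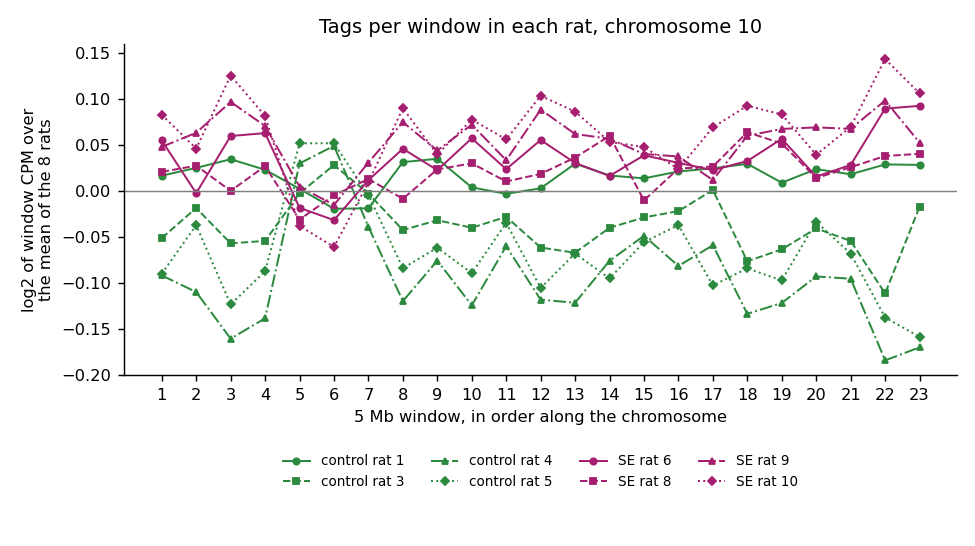
Tags in each 5 Mb window of chromosome 10 for each of the 8 rats, as the log2 ratio of the normalised count to the mean of the 8 rats. Control rat 4 is the lowest in 18 of 23 windows and SE rat 10 the highest in 15, and control rat 1 runs close to the SE rats. In windows 5 and 6 the order of the group means is turned over, and the groups overlap.

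The rats kept their places from window to window. SE rat 10 was the highest of the 8 in 15 windows and SE rat 9 in 5, and control rat 4 was the lowest in 18. SE rat 10 was however the lowest in 2 windows, and control rat 5 was the highest in 2, both counts being those of windows 5 and 6. The displacement along the chromosome was thus a difference in level between libraries that most windows shared.

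Local region density varied along the chromosome in a similar way. The mean density was 45.2 regions within 50 kb in window 21 and 44.6 in window 22, the densest windows. Window 6 was the sparsest. Across the 23 windows the log2 fold change had a Pearson correlation of 0.51 and a Spearman correlation of 0.49 with the log2 density (n = 23 windows of the same libraries, given as a description). Window 1 had a low density of 25.6 and a log2 fold change of 0.11, and window 5 had a density of 33.6 and a log2 fold change of -0.04, so single windows departed from the relation.

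Whether the libraries differ in how their tags follow density was tested on the other autosomes, so that no region of chromosome 10 entered. The excess of chromosome 10 was judged against these autosomes in the same rats, so the test is not independent of the choice. Local density counts regions of the table, which the authors selected as differing between pairs of libraries. The density measure is therefore not independent of the libraries either. The slope of a library is the change of its log2 CPM, less the average of all 8, for each unit of log2(density + 1). It was 0.0218, -0.0562, -0.109 and -0.0799 in control rats 1, 3, 4 and 5. The SE rats 6, 8, 9 and 10 had 0.0445, 0.0213, 0.0716 and 0.0864. Control rat 1 lay just above SE rat 8, and otherwise the SE rats had the larger slopes. The group means were -0.056 ± 0.0562 and 0.056 ± 0.0289 (SD, n = 4 each), and the difference of 0.112 did not pass the threshold (exact two-sided permutation test, p = 0.0571, where the smallest p that 4 rats against 4 allow is 0.0286).

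**Figure D3:**
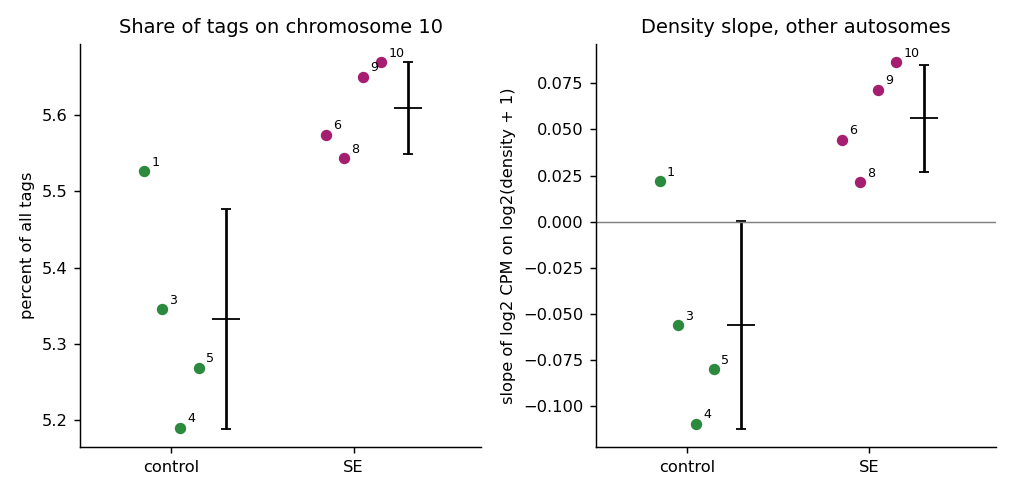
The percentage of all tags on chromosome 10 (left) and the density slope over the other autosomes (right) in each rat, numbered, with the group mean and SD beside the points (n = 4 each). Control rat 1 lies close to the SE rats in both panels, and control rat 4 is the lowest in both.

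The slopes on chromosome 10 itself followed those elsewhere. They were 0.0277, -0.0456, -0.108 and -0.0636 in control rats 1, 3, 4 and 5 and 0.0425, 0.0174, 0.0522 and 0.0774 in SE rats 6, 8, 9 and 10. The order of the rats was the same as on the other autosomes. The discarded SE rat 7 had a slope of 0.676 when all 10 libraries were used, far outside the range of -0.196 to 0.00358 of the other 9.

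How much of the excess goes with density was described by dividing the tested autosomal regions into 10 classes of density. On the other autosomes the hypermethylated share was larger in each denser class than in the one before, from 0.141% in the sparsest class to 0.896% in the densest. The hypomethylated share went from 4.48% down to 0.146%. Chromosome 10 had the larger hypermethylated share and the smaller hypomethylated share in each of the 10 classes. In class 6, with 33 to 36 regions within 50 kb, 1.07% of its regions were hypermethylated against 0.612% elsewhere, and 0.0931% were hypomethylated against 0.402%. The median log2 fold change of chromosome 10 also lay above that of the other autosomes in each class, by the largest amount in the sparsest (-0.20 against -0.27).

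**Figure D4:**
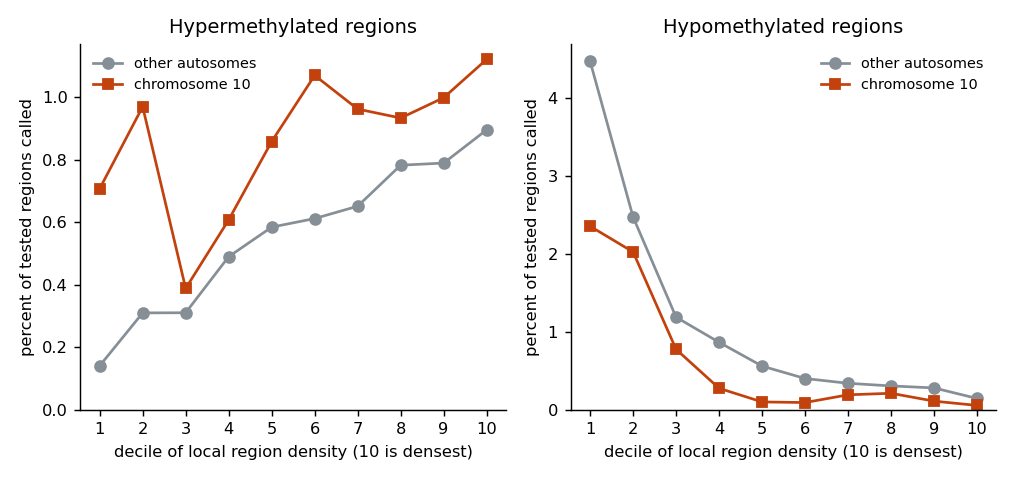
Percentage of tested regions called hypermethylated (left) and hypomethylated (right) in each decile of local region density, from the sparsest (1) to the densest (10), for chromosome 10 and for the other autosomes. In each decile chromosome 10 lies above the other autosomes on the left and below them on the right.

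With the shares of the other autosomes in the same density classes, chromosome 10 would hold 103.9 hypermethylated regions, and with their overall share 94.8. The 150 observed were 1.44 times the former and 1.58 times the latter. For hypomethylated regions the 64 observed were 0.534 times the 119.8 expected from density and 0.351 times the 182.1 expected from the overall share. In both directions the count from density classes lay nearer to the observed one than the count from the overall share did. Classes of mean tag count in place of density gave 95.9 expected hypermethylated regions, close to the overall share. On chromosome 12, the region-densest of the autosomes, the ratio for hypermethylated regions went from 1.56 with the overall share to 1.19 with density, and on chromosome 19 from 1.76 to 1.52. Regions within a window share libraries and neighbours, and these ratios are given without a test.

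In a separate fit the trend of each library on density was removed first. With such offsets 127 regions of chromosome 10 were hypermethylated (0.756%), against 0.558% of all tested regions, and 52 were hypomethylated (0.309%), against 0.683%. Of the 150 hypermethylated regions, 112 were called again, and of the 64 hypomethylated regions, 40. The median log2 fold change of the chromosome went from 0.07 to 0.04. In the 5 Mb windows, 18 of 23 remained above 0, 8 were higher at an adjusted p below 0.05, against 18.0% of all windows, and 1 was lower, against 20.7%. The lower window was window 5, at -0.10. Window 6 was at -0.04 (adjusted p 0.104), and windows 16, 20 and 21 changed to values between -0.00 and -0.02. Windows 1 (0.12), 23 (0.11) and 13 (0.10) were then the highest, and window 22 stood at 0.07 (adjusted p 0.0131).

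The region with the smallest p on the chromosome, chr10:104874028-104874989, lies at the end of window 21. It held 9, 11, 14 and 0 tags in control rats 1, 3, 4 and 5, against 18, 31, 22 and 43 tags in SE rats 6, 8, 9 and 10. A log2 fold change of 1.62 ± 0.34 (SE) resulted, with an adjusted p of 0.104 from edgeR. With DESeq2 the log2 fold change was 1.58 and the unadjusted p of 0.0378 no longer passed, and with all 10 libraries they were 0.68 and 0.427 (edgeR). All SE rats were above all control rats, but a control rat had no tag at all, and so had the discarded SE rat 7, whereas the discarded control rat 2 had 34. The 21 other regions within 50 kb included 8 tested regions, of which 1, chr10:104917501-104918879, was hypermethylated. That region had 10, 13, 14 and 0 tags in the control rats and 18, 28, 23 and 44 in the SE rats, a log2 fold change of 1.49 ± 0.34 and an adjusted p of 0.190. Again control rat 5 and SE rat 7 had no tag, and control rat 2 had 68.

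Both regions belong to a run in which control rat 5 had almost no tags. Over 12 consecutive regions of the table, from 104874028 to 104964608 (90.6 kb), control rat 5 had 2 tags in all, with none in 10 of the regions. This was its longest run of regions with at most 1 tag on the chromosome, and the median of the other 7 rats over the same regions was 109 tags. SE rat 7 had none in the same 12 regions nor in the region before them, and its run of 13 was also its longest. In the other 8 libraries the longest such run had 3 to 5 regions. The run was picked out after its values were seen, and it gets no test.

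**Figure D5:**
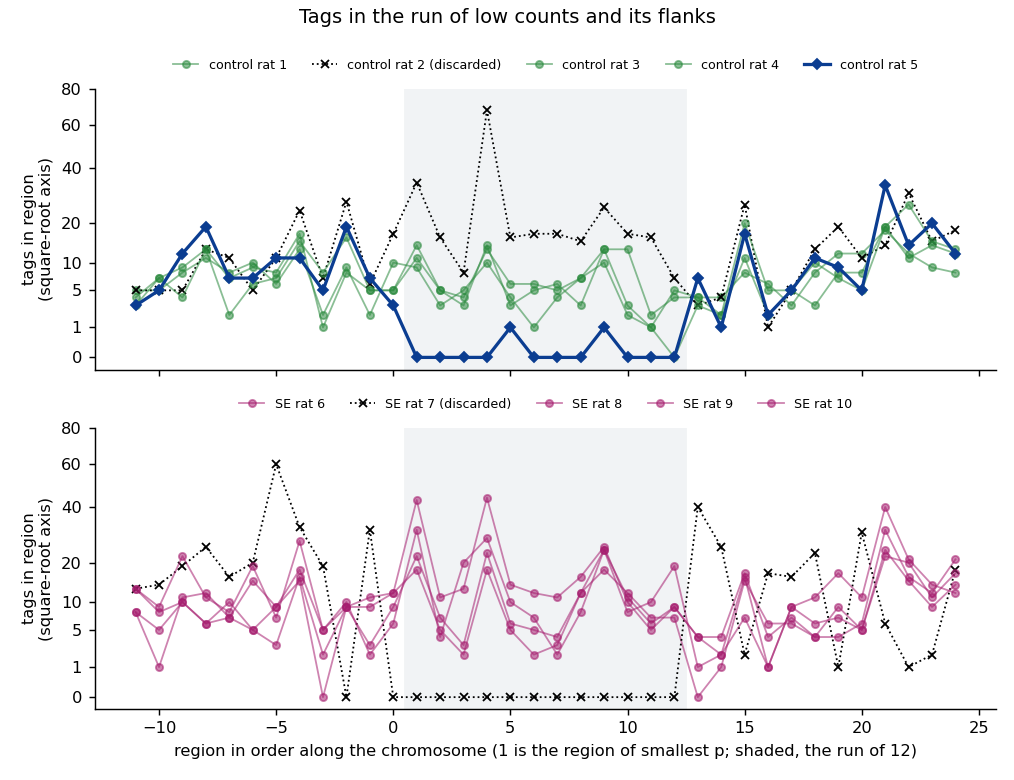
Tags in 36 consecutive regions around the region of smallest p, in control rats (top) and SE rats (bottom), with regions in order along the chromosome and a square-root axis for the count. In the shaded run of 12 regions control rat 5 has 2 tags in all and the discarded SE rat 7 has none, whereas control rat 5 is among the other controls on both sides of the run.

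On both sides of the run control rat 5 was like the other rats. The 12 regions before the run held 89, 88, 96 and 109 tags in control rats 1, 3, 4 and 5, and the 12 regions after it 104, 128, 101 and 136. Within the run the summed tags were 75, 75, 70 and 2 in these rats, and 109, 160, 143 and 213 in SE rats 6, 8, 9 and 10. In CPM of each library total, that is 13.0, 13.2, 12.7 and 0.296 in control rats and 18.3, 27.6, 24.7 and 29.7 in SE rats. The ratio of the group means was 2.56 with control rat 5 and 1.93 without it, while it was 1.11 and 1.03 in the flanks. Discarded control rat 2 had 35.8 CPM in the run, more than any SE rat, and 19.0 and 22.2 in the flanks. In the run the 10 libraries thus lay near 0, near 13, and between 18 and 36 CPM, with rats of both groups at the lowest and at the highest level.

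The run carried part of the strongest calls of the chromosome. Of its 12 regions 3 were tested and all 3 were hypermethylated. The one not given above was chr10:104946784-104947451, with a log2 fold change of 1.19 and an adjusted p of 0.467. Without control rat 5 the log2 fold changes were 1.16, 1.03 and 0.77, with adjusted p values of 0.659, 0.713 and 0.759, and the last of these no longer passed an unadjusted p of 0.01. With density offsets 24 regions of the whole table (0.00822%) passed an adjusted p of 0.05, and 2 of them were on chromosome 10. Both were regions of this run, each with an adjusted p of 0.0453. What empties these regions in control rat 5 and SE rat 7 was not tested.

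Hypermethylated regions that follow each other within 500 kb, 3 or more together, formed 21 clusters with 95 of the 150 regions. The clusters covered 14.1 Mb of 110.7 Mb, and 18 of the 21 held no hypomethylated region. With 64 such regions on the whole chromosome (0.381% of those tested), short stretches often hold none in any case. No other autosome had more clusters, but chromosome 10 is longer than the chromosomes of similar hypermethylated share. It held 1.35 hypermethylated regions per Mb, against 1.88 on chromosome 12 and 1.60 on chromosome 19. Per 100 Mb it had 19.0 clusters, chromosome 12 had 25.7 and chromosome 19 had 18.6. The largest cluster, from 104874028 to 107388995, had 13 hypermethylated regions among 652 tested over 2.51 Mb, and the median log2 fold change of all tested regions in it was 0.16. Its first 3 members are those of the run of low counts, and the other 10 lie beyond a gap of 227 kb. Those 10 had log2 fold changes of 0.58 to 1.30. Without control rat 5, 5 of the 13 members passed the threshold, 2 of them in the run.

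The next largest cluster, from 92301782 to 93434947, had 9 hypermethylated regions among 267 tested over 1.13 Mb. Its region of smallest p, chr10:92962098-92962754, had 8, 10, 7 and 9 tags in control rats and 24, 14, 13 and 28 in SE rats. The groups were separate, with a log2 fold change of 1.11 ± 0.33. Clusters of 6 lay from 46184334 to 47164573 and from 107993134 to 108933488, and clusters of 5 from 16484241 to 17381998 and from 40603050 to 41774550. The leading region of the cluster at 107993134 had 3, 7, 15 and 6 tags in control rats and 11, 16, 24 and 29 in SE rats, with a log2 fold change of 1.26 ± 0.36, and after normalisation control rat 4 lay above SE rats 6 and 8. At chr10:17015792-17016437 the counts were 14, 13, 14 and 13 against 24, 19, 31 and 32, a difference of 0.88 ± 0.28 on the log2 scale with no overlap. In the cluster at 46184334 the leading region, chr10:46643157-46643595, had 10, 11, 9 and 5 against 25, 18, 21 and 12 tags (log2 fold change 1.03 ± 0.34), and its groups overlapped after normalisation. The adjusted p of these 4 leading regions lay between 0.472 and 0.541. The call at 46643157 was lost without control rat 5 (log2 fold change 0.78), SE rat 6 (0.86) or SE rat 9 (0.96), and the call at 17015792 without SE rat 9 (0.77).

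Outside the run, the 3 hypermethylated regions of smallest p stood apart from each other along the chromosome. At chr10:4922623-4923481 control rats had 15, 10, 2 and 15 tags and SE rats 18, 32, 20 and 33, a log2 fold change of 1.21 ± 0.31. At chr10:37856200-37857033 the counts were 21, 8, 6 and 10 against 16, 26, 24 and 38, with a log2 fold change of 1.11 ± 0.31. Here control rat 1 lay above SE rat 6, so the groups overlapped. At chr10:45618957-45619456 they were 8, 5, 5 and 11 against 15, 22, 21 and 16, with a log2 fold change of 1.27 ± 0.35 and no overlap. The adjusted p of these regions was 0.400, 0.448 and 0.448, and each remained hypermethylated with any 1 of the 8 rats left out.

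The hypomethylated regions of smallest p were of different kinds. At chr10:44592566-44593063, in a sparse stretch with 5 regions within 50 kb, control rats had 11, 9, 22 and 15 tags and SE rats 7, 3, 6 and 3, a log2 fold change of -1.64 ± 0.42 (adjusted p 0.378). The region chr10:23813665-23815172 in window 5 held far more tags than any other named region, 627, 709, 729 and 1008 in control rats and 558, 567, 631 and 712 in SE rats. It differed by -0.39 ± 0.10 on the log2 scale (adjusted p 0.421), and the groups overlapped. The call was lost with loess normalisation on mean count (-0.16) and with offsets on density and mean count (-0.15). Without control rat 1 its adjusted p was 0.0118 (edgeR), and 0.474 to 0.735 with any other rat left out. This region had 268 tags in discarded control rat 2 and 2681 in discarded SE rat 7, the reverse order. The regions at 25217906, 83604922 and 79410200 differed by -1.16, -1.49 and -1.31 on the log2 scale. The groups were separate only in the one at 83604922. The call at 25217906 was lost without control rat 4 (-0.90) or SE rat 10 (-0.84), and the call at 79410200 without control rat 5 (-0.96) or SE rat 10 (-1.05).

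The study's supplementary list of introns with altered methylation names a pair of genes of this chromosome for the amygdala model, Pik3r5 and Slc39a11. That list holds introns altered in at least 2 models and gives both genes for the amygdala and the traumatic brain injury model. The amygdala values behind it came from these same rats, so the values below are not independent evidence. Pik3r5 encodes a regulatory subunit of phosphoinositide 3-kinase gamma, a lipid kinase activated by G protein-coupled receptors. The region in its intron, chr10:55230217-55230771, held 8, 10, 5 and 8 tags in control rats and 16, 12, 21 and 18 in SE rats. No control rat reached the lowest SE rat, and the log2 fold change was 1.02 ± 0.36 with an unadjusted p below 0.01 and an adjusted p of 0.572 (edgeR). The call was lost without control rat 4 (0.89), control rat 5 (0.97) or SE rat 9 (0.86). Slc39a11 encodes a member of the ZIP family of zinc transporters. The region in its intron, chr10:103021764-103022737, held 13, 5, 10 and 11 tags in control rats and 14, 16, 16 and 27 in SE rats. The groups did not overlap after normalisation, but its p missed the threshold (log2 fold change 0.81 ± 0.33, adjusted p 0.640). Among the fits with 1 rat left out it passed without control rat 1 alone (0.99).

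In both introns the raw tags of the discarded libraries had the same order, with 6 in control rat 2 and 37 in SE rat 7 for Pik3r5, and 10 and 64 for Slc39a11. SE rat 7 however held 14655629 tags in all, against 7154696 in control rat 2. Its density slope of 0.676 was also far above the others, and these regions have local densities of 40 and 68. The order is therefore no check on the listed introns. The Pik3r5 region is a member of a cluster of 3 from 55230217 to 55675978, whereas the Slc39a11 region, with 68 regions within 50 kb, is among the densest places of the chromosome. In the GRCr8 assembly of RefSeq, which is not the assembly of the table, both genes are on chromosome 10. Pik3r5 there lies between Pik3r5l1 and Pik3r6, the latter encoding another subunit of the same kinase, and Slc39a11 between Sox9, a transcription factor of glia and cartilage, and Sstr2, a somatostatin receptor.

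The regions next to the threshold show what it separates. The last hypermethylated regions by p, chr10:47164071-47164573 and chr10:62524559-62525420, had log2 fold changes of 1.13 ± 0.43 and 0.74 ± 0.28. The first ones to miss it, chr10:92341853-92342759 and chr10:20912003-20912517, had 0.79 ± 0.30 and 1.12 ± 0.43. Among hypomethylated regions, those at 48329130 and 37500472 were just inside with -1.09 and -0.92, and those at 52993445 and 21899537 just outside with -0.84 and -0.89. The values on both sides of the threshold overlapped. Each of these 8 regions changed sides, or was no longer tested, when some single rats were left out.

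The discarded pair, which had no part in these calls, gives a look at the same regions in other rats, with 1 rat of each group and no replicate. SE rat 7 was higher than control rat 2, per library total, in 43 of the 150 hypermethylated regions (28.7%). SE rat 7 was lower in 50 of the 64 hypomethylated regions (78.1%). It was thus below control rat 2 in most regions of either class, whatever the direction of the call. Among uncalled regions the sign was that of the 8 rats in 48.9%, a value that mixes both directions. How often SE rat 7 was the lower over all regions was not counted, so neither share is read as a repeat or a reversal of the calls. SE rat 7 had no tag in 23 hypermethylated (15.3%), 21 hypomethylated (32.8%) and 10.1% of the uncalled regions. When all 10 libraries were fitted, 55 regions were hypermethylated (0.324%), against 0.282% of all tested regions. Hypomethylated regions numbered 17 (0.100%), against 0.215%. Of these, 16 and 6 were among the 150 and the 64.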

How the data were processed

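Methyl-capture libraries of 10 rats were analysed, 1 per rat. The deposited values are raw tag counts per region. The authors mapped the tags to RN4 (BWA). They ran MACS between every pair of libraries (shift of 75 bp), joined the differing regions (BEDTools), dropped duplicate tags and counted the rest. By that selection the table holds regions that differed between some libraries. Its columns all matched a labelled rat (0 left over). Groups follow the labels, and p-values measure the spread between rats.

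Regions with a summed count over the 8 libraries below the 50th percentile (70 tags) were removed. The rest went through edgeR 4.0.16 (R 4.3.3, TMM, quasi-likelihood F test), two-sided, at an unadjusted p below 0.01, with Benjamini-Hochberg values over all tested regions. Standard errors are the fold change over the square root of F. Windows of 5 Mb were fitted likewise over all chromosomes. Slopes used log2 CPM (prior count 2) and an exact permutation test (scipy 1.17.1). Named regions were the region of smallest p, those overlapping the listed introns by at least 1 bp, the 5 of smallest p in each direction, the 2 just inside and the 2 just outside the threshold in each direction, the leading region of the 5 largest clusters, and the 3 highest and 3 lowest windows. The members, lists and tests were chosen with earlier results of these data known.

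On simulated counts for all 291987 regions the test called 60% of 100 regions shifted by 1 on the log2 scale, 98% of 100 shifted by 2, and 0.927% of unchanged regions. The simulation drew each region independently at a common dispersion. It held no density slopes and no runs of low counts, so these rates do not cover such features of the real libraries. At a median of 12.1 tags, counting error limits single regions more than sums. Alternatives were edgeR's exact test, DESeq2 1.42.0, library totals, upper-quartile and loess normalisation (limma 3.58.1), density offsets, other filters, gaps, windows and radii, all 10 libraries and each rat left out. Leaving out the run of low counts was chosen after the data were seen. No RN4 genome was used here, so no sequence or gene annotation is given beyond the listed introns.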

Additional observations from a re-analysis of the deposited data

Results flagged for a closer look

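Of 66 groups of 4 rats checked, 2 held a rat that lay far from the other 3, judged by the gap to its neighbour over the range of the group (Dixon's 95% value). Chance flags about 1 in 20 groups. At chr10:37856200-37857033 control rat 1 had 5.08 CPM (normalised) against 1.98, 1.55 and 2.07 in control rats 3, 4 and 5, a gap of 0.854 of the range. In window 7, SE rat 9 had 1565 CPM (normalised) against 1544, 1546 and 1542 in SE rats 6, 8 and 10, a gap of 0.833 of the range. Without control rat 1 that region had a log2 fold change of 1.61 and an adjusted p of 0.0470 (edgeR). With any other rat left out its adjusted p was 0.427 to 0.751. Window 7 was not looked into further, and the cause of neither gap was tested.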

How the results depend on the processing

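The 150 hypermethylated and 64 hypomethylated regions and the 21 clusters became 31, 18 and 1 with DESeq2, 32, 15 and 1 with at least 10 counts in every library, and 55, 17 and 2 with all 10 libraries. With DESeq2 the hypermethylated share of chromosome 10 was 0.184%, against 0.139% of all tested regions, and the hypomethylated share 0.107%, against 0.349%. With all 10 libraries they were 0.324%, against 0.282%, and 0.100%, against 0.215%. No region filter gave 239 and 119 regions. For the 2 other filters no shares over all regions were computed. Leaving out 1 rat gave 111 to 151 hypermethylated and 51 to 79 hypomethylated regions and 14 to 20 clusters. For these fits too no shares over all regions were computed, so the counts alone do not show an excess. Of the 150, between 72 (without control rat 5) and 97 (without SE rat 6) were called again. Without the run of low counts, chosen after the data were seen, 147 regions and 21 clusters were left. The ratio of 1.44 over the number expected from density was 1.20 with at least 10 counts, 1.06 with all 10 libraries and 1.20 to 1.32 with 1 rat left out. The density slope difference of 0.112 became 0.202 with all 10 libraries (p = 0.0318), 0.123 with a radius of 200 kb and 0.0979 without the filter (p = 0.0286 for both, exact permutation tests, the smallest that design allows). It was 0.0939 to 0.139 with 1 rat left out. The cause of these shifts was not tested. The share of windows above 0 stayed between 78.3% and 91.7% in all alternatives run. With 1 rat left out, the adjusted p of the region of smallest p ran from 0.035 (without control rat 4) to 0.712 (without SE rat 10). It was 0.918 with all 10 libraries and 0.999975 with DESeq2, and between 0.0453 and 0.114 in the other fits. Over the 24 named regions, 397 values under alternatives held 304 on the same side of the threshold, 69 that lost it, 23 that gained it and 1 reversal. DESeq2 accounted for 8 and all 10 libraries for 14 of those that lost it. The reversal was chr10:23813665-23815172 at 0.011 with all 10 libraries. No paired analysis was possible because the groups share no rat numbers.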
